A study of Homo sapiens with 6 samples.

Results

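Ribosome biogenesis factors are the proteins that build ribosomes without being part of the finished particle, and 55 of them were examined here in T98G, an established human glioblastoma cell line, after depletion of the protein kinase DYRK1A. They were found by gene symbol among the 23026 genes of the spike-in normalized table, where all 55 were listed. By their known roles 28 act on the small ribosomal subunit (SSU factors), 16 act on the large subunit (LSU factors), 7 are core proteins of small nucleolar ribonucleoproteins (snoRNPs) and 4 are further nucleolar proteins. Cells of both groups were infected with lentivirus and selected with puromycin. The first group carried a control short hairpin RNA (shControl, 3 libraries) and the other a hairpin against DYRK1A (shDYRK1A, 3 libraries), and library values are given in the order 1A, 1B, 1C throughout. Each T98G sample held the same number of cells and received a set dose of fly cells (Drosophila line Kc167), so that fly RNA gave an external scale. The labels do not say that the 3 libraries of a group came from separate infections, so p-values measure the spread between these libraries, which may be technical.

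Ribosomal RNA is transcribed by RNA polymerase I in the nucleolus as a long precursor that holds the small-subunit RNA and most of the large-subunit RNA. The SSU processome, a large assembly of UTP proteins and the U3 snoRNP, folds and cuts the small-subunit part, while a separate series of pre-60S factors matures the large-subunit part, and late factors accompany both particles to the cytoplasm. Box C/D snoRNPs methylate ribose residues of the precursor and box H/ACA snoRNPs turn uridine into pseudouridine.

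Gene counts summed to between 33708297 and 42154438 per library. A pair of scales is used for every member. The spike-in normalized count is the raw count divided by the library's spike-in size factor and speaks of transcript per cell; the share of counts (CPM, counts scaled to a common library total) and the TMM-scaled fold change speak of the transcript relative to the other human transcripts of the same library. In a bulk sample, fewer cells of a kind and less RNA per cell cannot be told apart. The hairpin target, DYRK1A, had normalized counts of 2227, 2234 and 1895 with shControl, against 1482, 1056 and 1285 with shDYRK1A, with no overlap between the groups and a log2 fold change of -0.73 ± 0.15 (SE; edgeR, adjusted p = 5.33e-06). Its rank on this scale was 1150 from the lowest of 9697 genes tested. Its TMM-scaled log2 fold change was smaller, at -0.34 ± 0.06 (SE), with an adjusted p of 5.91e-04 (edgeR). As a share of counts DYRK1A was at 46.7 ± 0.5 CPM in shControl and 37.6 ± 3.4 CPM in shDYRK1A (SD, n = 3). All 6 T98G marker genes, among them VIM and CD44, were above 1 CPM, summing to 6177 to 6259 CPM in shControl and 5669 to 5876 CPM in shDYRK1A. NES was by far the lowest of them, at 1.29 to 2.02 CPM over the libraries. The astrocyte markers GFAP, S100B and AQP4 were below 1 CPM in every library, as were all 4 leukocyte markers, all 3 endothelial markers, 2 of 3 epithelial markers and 3 of 4 neuronal markers. The neuronal list summed to 10.4 to 11.7 CPM in shControl and 5.99 to 6.95 CPM in shDYRK1A, and the epithelial list to 0.683 to 1.04 CPM and 1.07 to 1.73 CPM, and the part of these lists in the results was not tested.

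Of the 55 factors, 54 passed the expression filter of a mean above 10 CPM. The exception was PPAN, a pre-60S factor, with raw counts of 59, 59 and 63 in shControl and 63, 40 and 44 in shDYRK1A; 59.8% of its exonic bases are shared on the same strand with the overlapping genes P2RY11 and PPAN-P2RY11, so its count is uncertain. On the spike-in scale every one of the 54 factors had a negative log2 fold change, as did 93.6% of all 9697 genes tested. At an adjusted p below 0.05 (edgeR) 50 of the factors fell, or 92.6%, against 63.4% of all genes. None rose, and no factor had a positive log2 fold change at any p with edgeR or DESeq2. Normalized counts were lower in every shDYRK1A library than in any shControl library for 50 of the 54 factors. The same held for 6171 of the 9697 genes, so such a lack of overlap was common on this scale. The fall was more than 0.7 on the log2 scale for 9 of them, a share of 16.7%, against 14.3% of all genes. The median log2 fold change of the factors was -0.55, and that of all genes was -0.40.

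Relative to the other human transcripts the factors were lower by less. After TMM scaling, which sets the bulk of the human genes to no change, the median log2 fold change was -0.14 for the factors and 0.00 for all genes. With this scale 28 of the 54 were lower at an adjusted p below 0.05 (edgeR), or 51.9% against 28.6% of all genes, and 3 were higher, or 5.56% against 27.3% of all genes; the other 23 did not pass. The share of counts was lower in every shDYRK1A library than in any shControl library for 29 factors, or 53.7%, against 29.3% of all genes. It was higher in every shDYRK1A library than in any shControl library for 3 factors and for 3249 of the 9697 genes. Summed over the 54 factors, transcripts made up 0.809 ± 0.026% of gene counts in shControl and 0.721 ± 0.006% in shDYRK1A (SD, n = 3). The groups did not overlap, but abundant transcripts weigh most in such a sum. Of the difference of -0.087 percentage points, -0.054 lay in the nucleolar proteins, NPM1 and NCL among them. The SSU and LSU factors together gave -0.026, also without overlap. The snoRNP proteins gave -0.0069, and their share overlapped between the groups. The 14 S phase genes, replication factors such as MCM2 to MCM7 and PCNA, were also lower, at 2718 to 2829 CPM in shControl and 2053 to 2103 CPM in shDYRK1A without overlap, and their part in the factors' fall was not tested.

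**Figure D1:**
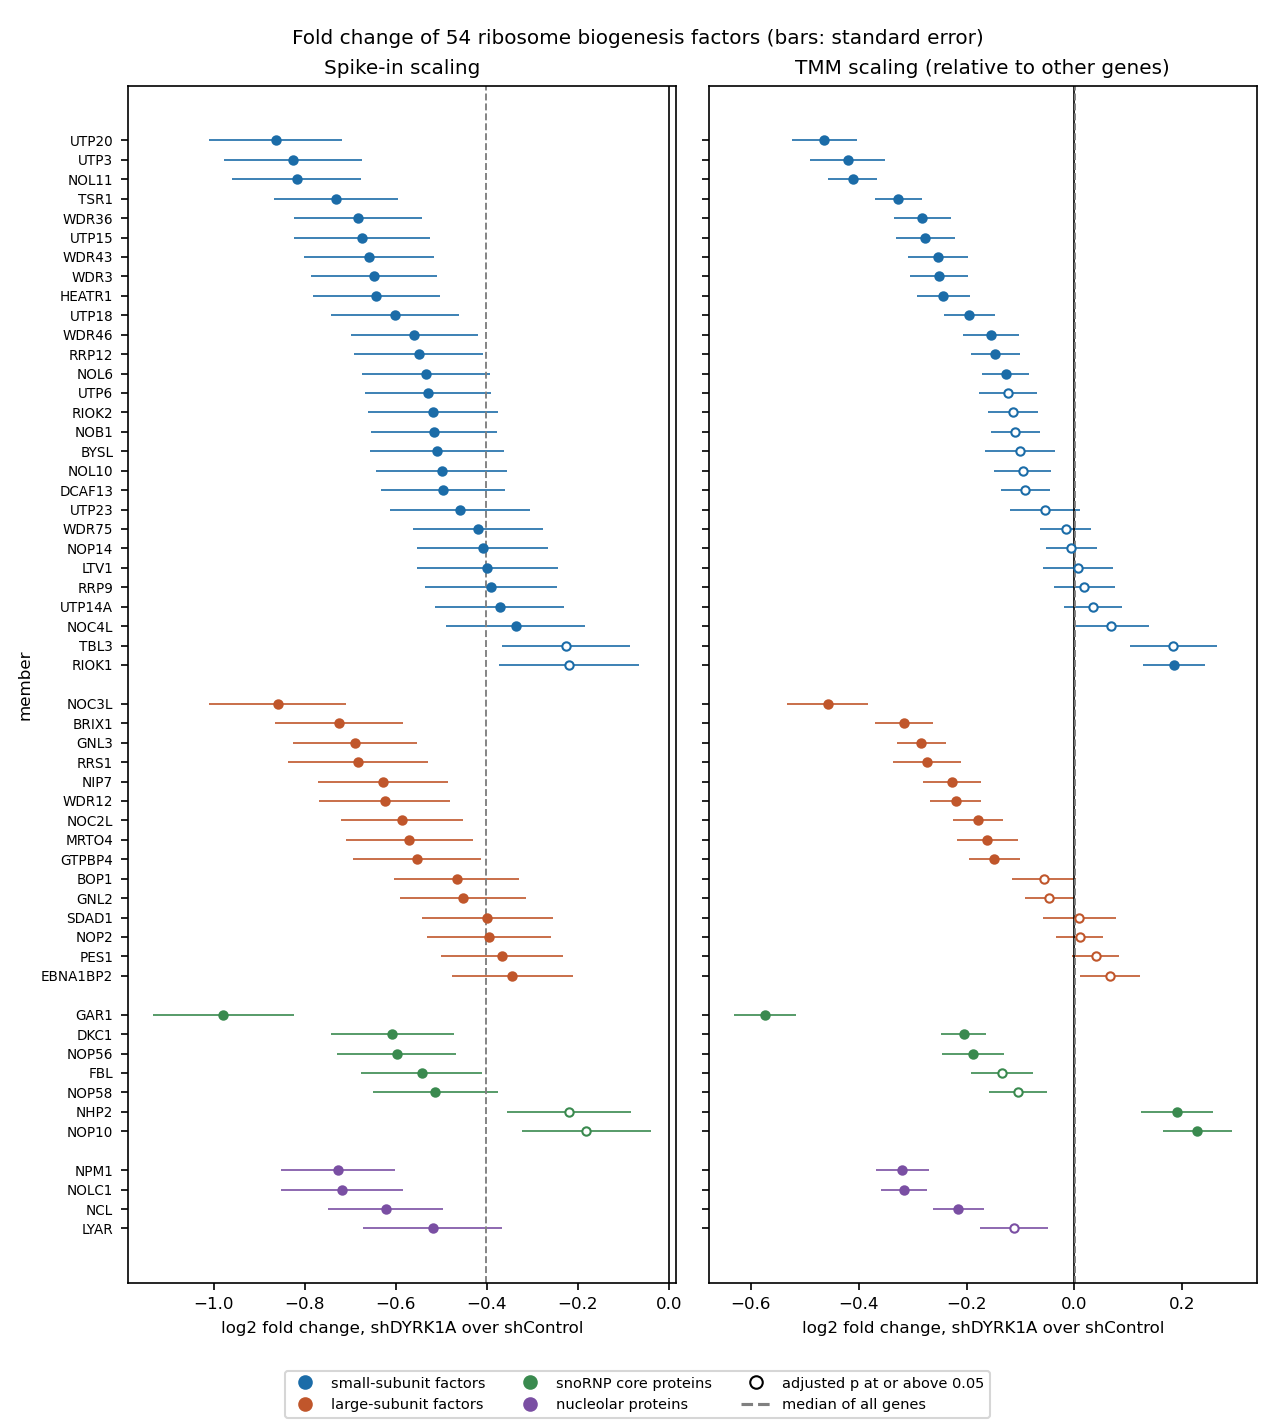
Log2 fold change (x axis) of each of the 54 factors tested (y axis), by class, with its standard error, on the spike-in scale (left) and after TMM scaling (right); filled points have an adjusted p below 0.05 and the dashed line is the median of all 9697 genes. All points lie below 0 on the left, from -0.98 for GAR1 to -0.18 for NOP10, while 12 lie above 0 on the right.

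Median log2 fold changes on the spike-in scale were -0.52 for the 28 SSU factors, -0.57 for the 15 LSU factors tested, -0.54 for the 7 snoRNP proteins and -0.67 for the 4 nucleolar proteins. Of these, 26, 15, 5 and 4 passed the adjusted p (edgeR), or 92.9%, 100%, 71.4% and 100%, against 63.4% of all genes. A comparison that no library-wide scale can move is the difference between classes inside a library. Mean log2 CPM of the SSU factors minus that of the LSU factors was -0.54, -0.54 and -0.49 with shControl, against -0.52, -0.53 and -0.48 with shDYRK1A. The groups overlapped, and their means of -0.52 ± 0.03 and -0.51 ± 0.03 (SD, n = 3) differed by 0.01, less than the spread between libraries. The snoRNP proteins minus the SSU and LSU factors together gave 0.82, 0.76 and 0.79 in shControl and 0.81, 0.88 and 0.76 in shDYRK1A, again overlapping, with means of 0.79 ± 0.03 and 0.82 ± 0.06 (SD, n = 3). Taken from summed counts, in which abundant transcripts weigh most, SSU minus LSU factors gave 0.32 ± 0.02 in shControl and 0.27 ± 0.05 in shDYRK1A (SD, n = 3), also with overlap.

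**Figure D2:**
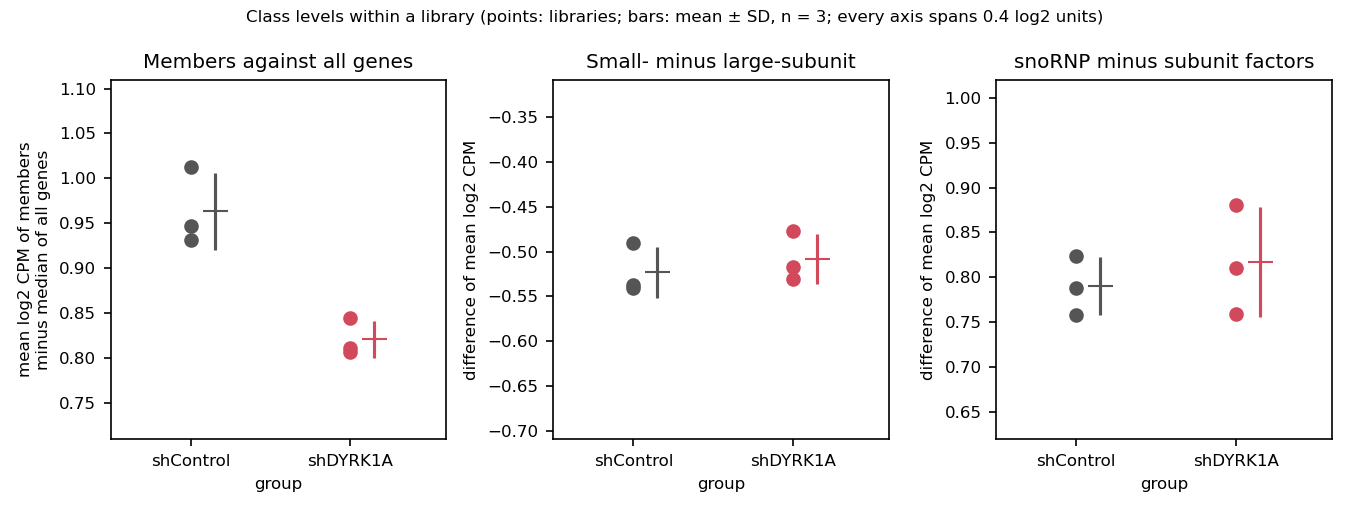
Class levels inside each library on the log2 CPM scale (y axes) in shControl and shDYRK1A (x axes), with points for libraries and bars for mean ± SD (n = 3). The factors' mean minus the median of all genes was 0.96 ± 0.04 in shControl and 0.82 ± 0.02 in shDYRK1A without overlap, while the differences between classes overlapped.

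Promoter sequences are shown here because a hexamer recurred at the start sites of many factors, including some of those lowered most and some of those lowered least. RefSeq windows of 300 bases (250 before the transcription start and 50 from it on, build GRCh38.p14) were given for 47 of the 55 symbols, and 6 of these had a pair of windows. RRP12, NOLC1, BOP1, UTP23, NOP58, DCAF13, RRS1 and NOL10 were without a window. A gene was counted for a motif if any of its windows held it. Median GC content was 64.3% in the factors' windows and 58.7% in all windows, and its part in the motif shares was not tested. The E-box CACGTG, a palindrome known as a binding sequence of MYC-MAX and USF factors, was found in 22 of the 47, or 46.8%, against 13.1% of 7594 genes of the expression filter and 8.77% of all 27305 genes with a window. In 18 of the 22 it began between 10 bases before the start and the end of the window, as it did in 187 of the 998 filtered genes with an E-box (18.7%); this interval was chosen after the positions had been seen. E-boxes were present in 10 of 24 SSU factors, 8 of 14 LSU factors, 3 of 6 snoRNP proteins and 1 of 3 nucleolar proteins. The palindrome TCTCGCGAGA, to which the study ties DYRK1A at promoters, was found in NOL11 and NOP14, 4.26% of the 47, against 1.16% of the filtered genes and 0.505% of all genes. CCGGAAGT, a sequence of the ETS type to which GABP belongs, was found in 9 (19.1%, against 11.5% of filtered and 4.95% of all genes) and GCGCATGC, part of the NRF1 sequence, in 3 (6.38%, against 7.05% and 3.68%). Both strands were searched, no searched motif contains another, and binding was not measured in the files used here.

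The 6 windows of 110 bases printed next hold 60 before the start and 50 from it on and are read 5′ to 3′ along the gene. Capitals mark CACGTG, the TCTCGCGAGA palindrome or CCGGAAGT on either strand. UTP20, NOC3L and GAR1 (the second of its RefSeq starts) are the lowest factors of their classes, NOP10 is the least lowered of all, and NOL11 and NOP14 carry the TCTCGCGAGA palindrome.
UTP20, chr12:101280045-101280154, plus strand: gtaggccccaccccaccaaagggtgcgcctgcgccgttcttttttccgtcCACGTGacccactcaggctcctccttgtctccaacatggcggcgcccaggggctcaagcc
NOC3L, chr10:94362890-94362999, minus strand: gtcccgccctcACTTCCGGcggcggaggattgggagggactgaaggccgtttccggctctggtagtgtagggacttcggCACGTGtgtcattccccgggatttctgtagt
GAR1, chr4:109815702-109815811, plus strand: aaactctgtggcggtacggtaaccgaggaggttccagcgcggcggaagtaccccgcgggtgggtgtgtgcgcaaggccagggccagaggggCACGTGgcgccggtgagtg
NOP10, chr15:34343087-34343196, minus strand: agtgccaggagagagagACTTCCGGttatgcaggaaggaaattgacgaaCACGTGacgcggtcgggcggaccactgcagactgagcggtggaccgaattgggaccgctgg
NOL11, chr17:67717876-67717985, plus strand: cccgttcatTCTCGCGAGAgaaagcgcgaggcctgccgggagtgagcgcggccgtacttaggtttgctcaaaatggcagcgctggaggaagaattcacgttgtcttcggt
NOP14, chr4:2963357-2963466, minus strand: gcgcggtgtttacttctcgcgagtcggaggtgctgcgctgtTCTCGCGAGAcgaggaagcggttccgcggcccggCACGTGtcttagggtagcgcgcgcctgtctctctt
The E-box thus stood within the printed bases of UTP20, NOC3L and GAR1 and also of NOP10. The window at the other RefSeq start of GAR1 held no E-box, only a CCGGAAGT match. Among other strongly lowered factors, UTP3, NOL11, TSR1, BRIX1 and NPM1, the lowest nucleolar protein, had no E-box in their windows. Among the least lowered, NHP2, RIOK1 and TBL3 had none either. Factors with an E-box had a median log2 fold change of -0.51 on the spike-in scale and those with a window but none had -0.61.

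**Figure D3:**
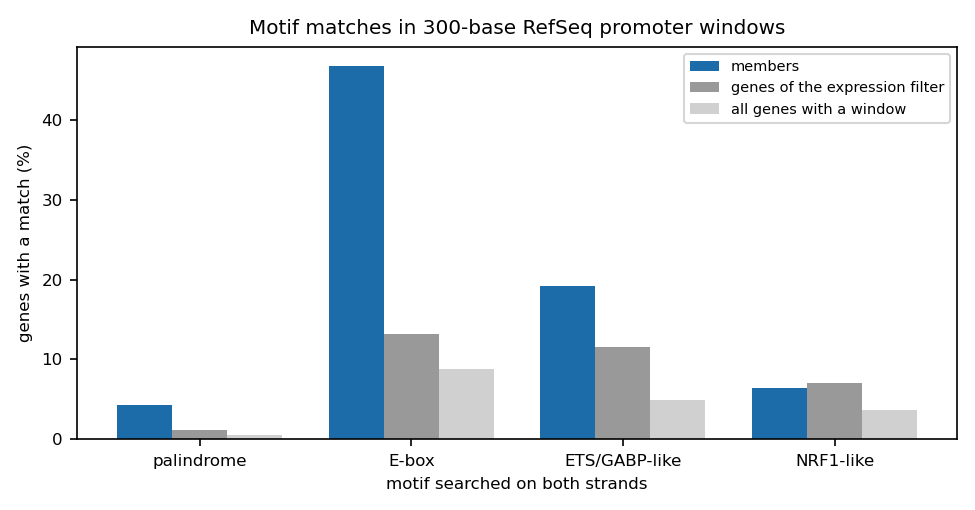
Share of genes with at least 1 match to each motif in the 300-base windows (y axis, percent), for the 47 factors with a window, the 7594 genes of the expression filter and all 27305 genes. The E-box bar of the factors stands at 46.8%, against 13.1% and 8.77%.

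Among the SSU factors, the UTP-A complex comes first. It binds the leading end of the precursor RNA and is also known to support its transcription. All 5 measured subunits fell, with log2 fold changes on the spike-in scale of NOL11 -0.82, UTP15 -0.68, WDR43 -0.66, HEATR1 -0.64 and WDR75 -0.42. After TMM scaling 4 of them, all but WDR75, were lower as well (edgeR, adjusted p from 1.95e-05 to 0.00238), or 80.0%, against 28.6% of all genes. NOL11, the lowest of the complex, is one of the 2 factors with the TCTCGCGAGA palindrome shown above. Per raw count of HEATR1, NOL11 had 0.876 ± 0.039 counts in shControl and 0.781 ± 0.047 in shDYRK1A (SD, n = 3), with overlap. UTP-B, the next module to join, had WDR36 -0.68, WDR3 -0.65, UTP18 -0.60, UTP6 -0.53 and TBL3 -0.23.

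TBL3 was the UTP-B subunit with the smallest change. Its normalized counts were 3039.8, 3644 and 2915 with shControl, against 2736, 2768 and 2703 with shDYRK1A. All 3 shDYRK1A libraries lay just below the lowest shControl library, and the change did not pass, with 3199.5 ± 389.7 for shControl and 2736 ± 32.5 for shDYRK1A (SD, n = 3), or a log2 fold change of -0.23 ± 0.14 (SE; edgeR, adjusted p = 0.144). Its share of counts overlapped between the groups. Counted against WDR36 within each library, a ratio that no scaling moves, WDR36 had 1.44, 1.12 and 1.21 raw counts per TBL3 count in shControl and 1.01, 0.763 and 0.957 in shDYRK1A, without overlap. The gene NOXO1 overlaps 29.9% of the exonic bases of TBL3 on the other strand, and the strand setting of the counting is not given in the sources used here. HEATR1 (23.2%), TSR1 (20.8%), NIP7 and NOB1 (20.2% each), GTPBP4 (19.1%), EBNA1BP2 (18.8%) and WDR3 and NOP14 (17.1% each) share exonic bases with an antisense gene in the same way.

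The remaining processome factors included the lowest of the small-subunit class. UTP20 (ENSG00000120800, GRCh38 chromosome 12, 101280109 to 101386616), a very long repeat protein of the processome, had normalized counts of 2672, 2479 and 2209 with shControl, against 1482, 1130.3 and 1429 with shDYRK1A. The groups did not overlap, and shDYRK1A 1B was the lowest. The means were 2454 ± 233 for shControl and 1347 ± 189.7 for shDYRK1A (SD, n = 3), or a log2 fold change of -0.86 ± 0.15 (SE; edgeR, adjusted p = 4.57e-08). UTP3 (ENSG00000132467, chromosome 4, 70688479 to 70690551), a processome protein encoded by a single exon, had normalized counts of 1909, 1676 and 1565 with shControl, against 1017, 953 and 933 with shDYRK1A. Again the groups did not overlap, and the means were 1717 ± 176 for shControl and 968 ± 43.8 for shDYRK1A (SD, n = 3), or a log2 fold change of -0.83 ± 0.15 (SE; edgeR, adjusted p = 5.65e-07). The other 9 all fell on the spike-in scale, by log2 fold changes of WDR46 -0.56, NOL6 -0.53, NOL10 -0.50, DCAF13 -0.50, UTP23 -0.46, NOP14 -0.41, RRP9 -0.39, UTP14A -0.37 and NOC4L -0.34. NOP14, whose promoter holds the palindrome and an E-box, and its partner NOC4L were near the median of all genes, at -0.01 and 0.07 after TMM scaling, where neither passed. RRP9, the protein of the set that is particular to the U3 snoRNP, was at 0.02 after TMM scaling.

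All 7 factors of the later pre-40S particle had a negative log2 fold change on the spike-in scale. At an adjusted p below 0.05 (edgeR) 6 of the 7 were lower, or 85.7%, against 63.4% of all genes. TSR1, a GTPase-like factor of the late particle, was the lowest with a log2 fold change of -0.73 ± 0.14 (SE; edgeR, adjusted p = 8.20e-07). RRP12, RIOK2, NOB1, the endonuclease that makes the final cut of the small-subunit RNA, BYSL and LTV1 followed with RRP12 -0.55, RIOK2 -0.52, NOB1 -0.52, BYSL -0.51 and LTV1 -0.40. RIOK1, an atypical kinase of late pre-40S maturation, was the exception. It had normalized counts of 1132, 1045 and 899 with shControl, against 959, 784 and 897 with shDYRK1A. These overlapped between the groups, and the change of -0.22 ± 0.15 (SE; edgeR, adjusted p = 0.193) did not pass. Its share of counts was 23.5, 21.8 and 22.4 CPM with shControl, against 26.2, 25.1 and 26.9 with shDYRK1A, higher in every shDYRK1A library, with a TMM-scaled log2 fold change of 0.18 ± 0.06 (SE; edgeR, adjusted p = 0.0175). A share higher in every shDYRK1A library was common, and was seen for 3249 of the 9697 genes. The related kinase RIOK2 had a TMM-scaled change of -0.11.

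**Figure D4:**
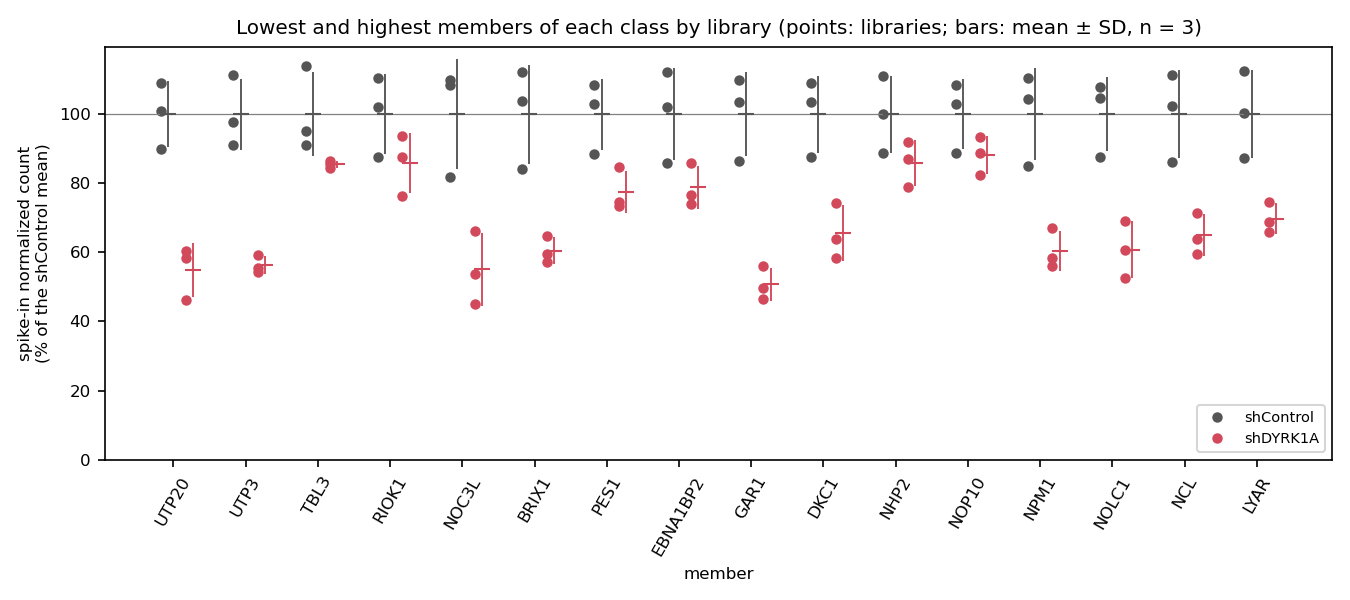
Spike-in normalized count of the 2 lowest and 2 highest factors of each class (x axis) as a percentage of the shControl mean (y axis), with points for libraries and bars for mean ± SD (n = 3). GAR1, UTP20, NOC3L and UTP3 lie at 50.7%, 54.9%, 55.1% and 56.4% of shControl on average, and NOP10, NHP2, RIOK1 and TBL3 at 88.2%, 85.9%, 85.8% and 85.5%.

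The LSU factors were led by NOC3L (ENSG00000173145, chromosome 10, 94333226 to 94362959), a factor of early pre-60S particles, with normalized counts of 1944, 1971 and 1465 with shControl, against 1189, 809 and 966 with shDYRK1A. The groups did not overlap. The means were 1794 ± 285 for shControl and 988 ± 191 for shDYRK1A (SD, n = 3), or a log2 fold change of -0.86 ± 0.15 (SE; edgeR, adjusted p = 1.68e-07). BRIX1, which binds large-subunit precursor RNA, had normalized counts of 4442, 4109 and 3338 with shControl, against 2569, 2264 and 2354 with shDYRK1A. Its groups were separate as well, with 3963 ± 567 for shControl and 2396 ± 157 for shDYRK1A (SD, n = 3), or a log2 fold change of -0.73 ± 0.14 (SE; edgeR, adjusted p = 2.51e-06). The other factors of this kind were RRS1, needed for loading of the 5S particle, NIP7, NOC2L, a partner of NOC3L, MRTO4, a relative of the ribosomal stalk protein, SDAD1, NOP2, an RNA methyltransferase, and EBNA1BP2. They had RRS1 -0.68, NIP7 -0.63, NOC2L -0.59, MRTO4 -0.57, SDAD1 -0.40, NOP2 -0.40 and EBNA1BP2 -0.34. All passed on the spike-in scale, where 63.4% of all genes did in the same direction. NOP2 shares 54.4% of its exonic bases with a gene on the same strand and its count is uncertain, as are those of LTV1 (34.8%) and RRS1 (11.4%).

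The 3 proteins of the PeBoW complex, which is needed for processing of the internal spacer before the 28S RNA, had log2 fold changes on the spike-in scale of WDR12 -0.62, BOP1 -0.47 and PES1 -0.37. PES1 had normalized counts of 9213, 8747 and 7528 with shControl, against 7187, 6242 and 6337 with shDYRK1A, with the highest shDYRK1A library just under the lowest shControl library and 8496 ± 870.2 for shControl and 6589 ± 521 for shDYRK1A (SD, n = 3), or a log2 fold change of -0.37 ± 0.13 (SE; edgeR, adjusted p = 0.0121). EBNA1BP2, the highest of the class, had normalized counts of 11772, 10726 and 9012 with shControl, against 9008, 8042 and 7776 with shDYRK1A. Its groups nearly touched, and the means were 10503 ± 1394 for shControl and 8275 ± 648 for shDYRK1A (SD, n = 3), or a log2 fold change of -0.34 ± 0.13 (SE; edgeR, adjusted p = 0.0177). After TMM scaling neither passed, with PES1 at 0.04 and EBNA1BP2 at 0.07, while WDR12 was lower at -0.22 (edgeR, adjusted p = 0.00207). The nucleolar GTPases GNL3 (nucleostemin), GTPBP4 and GNL2 had GNL3 -0.69, GTPBP4 -0.55 and GNL2 -0.45 on the spike-in scale.

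The box H/ACA snoRNP held both ends of the range. GAR1 (ENSG00000109534, chromosome 4, 109815510 to 109824740), which binds the catalytic subunit, was the lowest of the 54 factors. Its normalized counts were 1349, 1272 and 1062 with shControl, against 688, 569.8 and 609.5 with shDYRK1A. Every shDYRK1A library was far under the lowest shControl library, with 1228 ± 148 for shControl and 622 ± 60.2 for shDYRK1A (SD, n = 3), or a log2 fold change of -0.98 ± 0.16 (SE; edgeR, adjusted p = 6.51e-09). DKC1 (dyskerin), the pseudouridine synthase itself, had normalized counts of 8337, 7931 and 6695 with shControl, against 5696, 4473 and 4894 with shDYRK1A. The groups were separate for DKC1 too, with 7654 ± 855 for shControl and 5021 ± 621 for shDYRK1A (SD, n = 3), or a log2 fold change of -0.61 ± 0.14 (SE; edgeR, adjusted p = 3.93e-05).

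NHP2 and NOP10, the remaining core subunits, were the members of the complex with the smallest change. NHP2, an RNA-binding protein, had normalized counts of 6300.0, 5675 and 5032 with shControl, against 5213, 4929 and 4468 with shDYRK1A. The groups overlapped, and the means were 5669 ± 634 for shControl and 4870.1 ± 376 for shDYRK1A (SD, n = 3), or a log2 fold change of -0.22 ± 0.14 (SE; edgeR, adjusted p = 0.142). NOP10, a very small protein that joins DKC1, had normalized counts of 2829, 2688 and 2315 with shControl, against 2437, 2319 and 2152 with shDYRK1A. These also overlapped, with 2611 ± 266 for shControl and 2303 ± 143 for shDYRK1A (SD, n = 3), or a log2 fold change of -0.18 ± 0.14 (SE; edgeR, adjusted p = 0.247). As a share of counts both were higher in every shDYRK1A library, as were 3249 of the 9697 genes. NHP2 was at 131, 119 and 125 CPM with shControl, against 142, 158 and 134 with shDYRK1A, with a TMM-scaled log2 fold change of 0.19 ± 0.07 (SE; edgeR, adjusted p = 0.0303). NOP10 was at 58.8, 56.2 and 57.7 CPM with shControl, against 66.5, 74.3 and 64.6 with shDYRK1A, with 0.23 ± 0.06 (SE; edgeR, adjusted p = 0.0103). On that scale GAR1 and DKC1 were lower, at -0.57 and -0.21. RMND5B overlaps 27.4% of the exonic bases of NHP2 on the other strand.

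The unequal change within the complex can be read without any scaling. Per raw count of NOP10, GAR1 had 0.477, 0.473 and 0.459 counts with shControl, against 0.282, 0.246 and 0.283 with shDYRK1A. The ratio was 0.470 ± 0.010 in shControl and 0.270 ± 0.021 in shDYRK1A (SD, n = 3), without overlap. DKC1 per NHP2 went from 1.35 ± 0.04 to 1.03 ± 0.11 (SD, n = 3), also without overlap. The 5 pairs for which such ratios are given were chosen after the fold changes had been seen, and they are a description. In the box C/D snoRNP, by comparison, NOP56, FBL (fibrillarin, the methyltransferase) and NOP58 had NOP56 -0.60, FBL -0.54 and NOP58 -0.51, and NOP58 per FBL was 0.536 ± 0.023 in shControl and 0.550 ± 0.041 in shDYRK1A (SD, n = 3), with overlap.

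**Figure D5:**
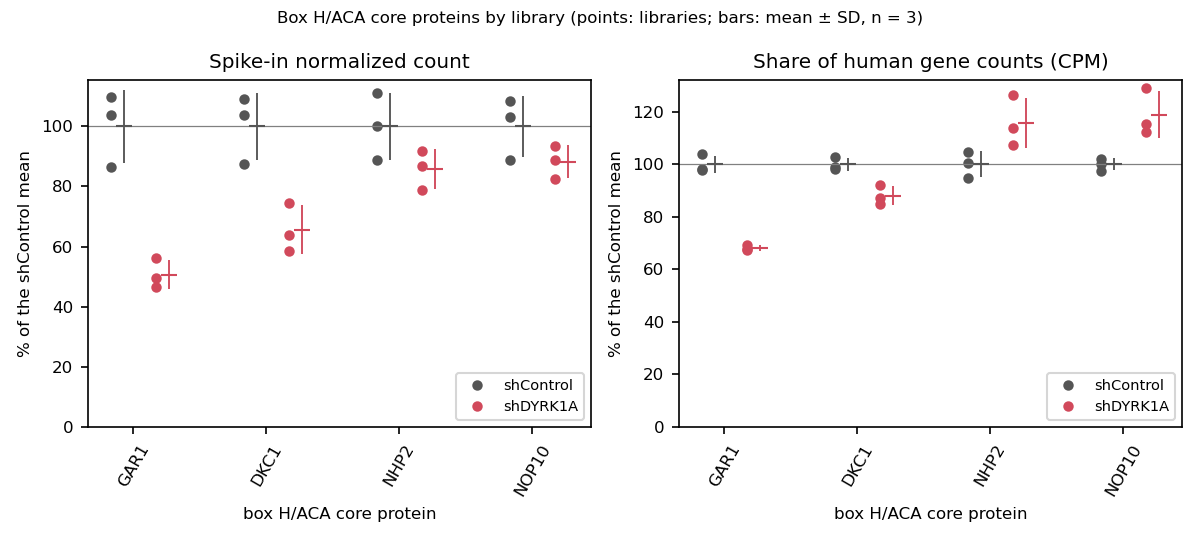
Box H/ACA core proteins (x axis) as a percentage of the shControl mean (y axis), as spike-in normalized counts (left) and as share of gene counts (right), with points for libraries and bars for mean ± SD (n = 3). GAR1 and DKC1 lie below shControl on both sides, while NHP2 and NOP10 overlap it on the left and lie above it on the right.

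Among the nucleolar proteins, NPM1 and NCL had the highest levels per kilobase of all 54 factors, at percentiles 99.5 and 98.2 of all genes in shControl. NPM1 (nucleophosmin), a chaperone of nucleolar assembly, had normalized counts of 94804, 89530.1 and 73013 with shControl, against 57446, 48031 and 50066 with shDYRK1A. No libraries overlapped between the groups, and the means were 85783 ± 11369 for shControl and 51848 ± 4954 for shDYRK1A (SD, n = 3), or a log2 fold change of -0.73 ± 0.13 (SE; edgeR, adjusted p = 9.94e-08). NOLC1, which accompanies snoRNPs through nucleolus and Cajal bodies, had normalized counts of 9931, 9635 and 8078 with shControl, against 6355, 4847 and 5602 with shDYRK1A. It was separate as well, with 9215 ± 996 for shControl and 5601 ± 754 for shDYRK1A (SD, n = 3), or a log2 fold change of -0.72 ± 0.13 (SE; edgeR, adjusted p = 1.03e-06). NCL (nucleolin), which binds precursor RNA, had normalized counts of 61789.9, 56762 and 47783 with shControl, against 39649, 33017 and 35423 with shDYRK1A, also without overlap. Its log2 fold change was -0.62 ± 0.13 (SE; edgeR, adjusted p = 6.95e-06). LYAR, a zinc finger protein of the nucleolus, had normalized counts of 1399, 1245 and 1083 with shControl, against 926, 818 and 854 with shDYRK1A, and its log2 fold change was -0.52 ± 0.15 (SE; edgeR, adjusted p = 0.00190). After TMM scaling NPM1, NOLC1 and NCL were lower, at -0.32, -0.32 and -0.22, and LYAR at -0.11 did not pass.

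Several factors carry snoRNA genes inside their own bounds, as host genes whose introns are the source of snoRNAs. Of the 54 tested, 8 hold 26 annotated snoRNA genes in all. They are GNL3 with 6, NOP56 with 5, NOP58 with 4, WDR43 and NCL with 3 each, TSR1 and DKC1 with 2 each and NOL11 with 1. Their log2 fold changes on the spike-in scale ran from -0.82 to -0.51 with a median of -0.64, and the 46 others had a median of -0.52. The hosts lay within the range of the others, which ran from -0.98 to -0.18. Expression per kilobase in shControl placed the factors at a median percentile of 70.6 among all genes, and the snoRNP proteins at 95.2. Across the 54 factors, Spearman's rho between log2 fold change and exonic length was -0.27 and that with expression per kilobase was 0.06, against -0.17 and 0.00 over 9693 genes; genes of the same libraries are not independent points, and rho is given as a description.

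A further 90 genes of the same pathway, outside the 55, were examined, and 88 passed the filter. Their median log2 fold change on the spike-in scale was -0.51, and all 88 values were negative. At an adjusted p below 0.05 (edgeR) 71 were lower, or 80.7% against 63.4% of all genes, and 16 were also lower by more than 0.7, or 18.2% against 14.3%. After TMM scaling 37 were lower, or 42.0% against 28.6%, and 10 were higher, or 11.4% against 27.3%. The lowest lay below any of the 54 factors. NMD3, the export adaptor of the pre-60S particle, had normalized counts of 4146, 4131 and 3346 with shControl, against 1871, 1338 and 1718 with shDYRK1A, with a log2 fold change of -1.24 ± 0.14 (SE; edgeR, adjusted p = 8.01e-16). FCF1, a processome protein of the nuclease fold, had -1.20 ± 0.15 (SE) and URB2, a pre-60S factor, -1.19 ± 0.16 (SE), both without overlap between the groups. At the other end RCL1, DDX49 and TSR3, all of the small-subunit pathway, had -0.10, -0.11 and -0.14, none of which passed, and were higher after TMM scaling, at 0.31, 0.30 and 0.27 (edgeR, adjusted p = 0.00311, 9.43e-04 and 0.00568).

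Leaving out 1 library at a time moved several of these counts. The share of all genes at an adjusted p below 0.05 was not computed for these fits. Whether the shifts concern the factors more than other genes is therefore not shown. Without shControl 1A or without shDYRK1A 1B, 5 factors fell by more than 0.7 in place of 9, and without shControl 1C or without shDYRK1A 1A it was 18. At an adjusted p below 0.05 (edgeR) on the spike-in scale, 37 factors were lower without shControl 1A, 39 without shControl 1B, 44 without shDYRK1A 1B, 39 without shDYRK1A 1C, 50 without shDYRK1A 1A and 53 without shControl 1C, where TBL3, RIOK1 and NHP2 also passed (adjusted p = 0.0354, 0.0484 and 0.0212). GAR1, UTP20, NOC3L, UTP3, NOL11 and 31 further factors passed in all 6 of these fits, and 22 factors were lower in all 6 fits after TMM scaling. NOP10 was higher after TMM scaling in all 6 fits (edgeR, adjusted p from 0.00526 to 0.0389). Its TMM-scaled log2 fold change was smallest without shDYRK1A 1B, at 0.149, and so was that of NHP2, at 0.107. NHP2 lost its TMM-scaled call without shControl 1B or 1C (adjusted p = 0.109 and 0.0829), and RIOK1 lost it without shControl 1B, shControl 1C or shDYRK1A 1C (adjusted p = 0.0756, 0.0671 and 0.0540). Without shControl 1C only 1 factor, NOP10, was therefore higher on that scale.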

How the data were processed

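Messenger RNA of 6 T98G libraries (3 shControl, 3 shDYRK1A) was read with a stranded paired-end kit. The authors deposited raw counts per gene and library (58174 gene IDs), and a table of size-factor normalized signal for 23026 genes, which is the raw count divided by 1 constant per library that the authors derived from fly spike-in reads. The submitters' processing notes name STAR, DESeq2, hg38 and dm3, and the version of STAR and the strand setting are not given in the sources used here. A deposited table of the authors' own comparison was not used; it holds log2 fold changes, a test score and p-values. Unmapped reads, 8.44 to 15.6% of reads with the most in shDYRK1A 1B, and the other summary lines stayed out of library sizes.

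Size factors (0.821 to 1.21) were recovered from the deposited normalized signal. Genes with a mean above 10 CPM (9697) were tested with edgeR 4.0.16 (glmQLFit, robust; glmQLFTest), with Benjamini-Hochberg adjustment over all of them. Alternatives were TMM, median-of-ratios scaling, DESeq2 1.42.0, filterByExpr, no filter, the replicate letter as a block and each library left out. The steps were tested on simulated data. The members, classes and lists, among them 14 S phase genes, cell type markers and 90 other pathway genes, were chosen with earlier results of these data known. Library values are given for the 2 lowest and 2 highest factors of each class, the 3 lowest and 3 highest other pathway genes are named, and further values were chosen after they were seen. Gene coordinates and overlaps are from GENCODE v29 (GRCh38), which matched 95.8% of the genes in the normalized table. Columns that matched no sample numbered 0.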

Additional observations from a re-analysis of the deposited data

How the results depend on the processing

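Scaling moved the counts most. In place of 50 factors lower on the spike-in scale, 28 were under TMM, 28 under median-of-ratios scaling and 29 under TMM with a replicate block, and 0 in place of 9 fell by more than 0.7 under each of the 3 (the lowest factor, GAR1, was at -0.57 under TMM), while all genes past that threshold numbered 187, 184 and 189 in place of 1386. In the same order, median log2 fold changes were -0.14, -0.14 and -0.14 for all factors, -0.12, -0.12 and -0.12 for SSU factors, -0.16, -0.16 and -0.16 for LSU factors and -0.13, -0.13 and -0.14 for snoRNP proteins. These scalings moved the median of all genes from -0.40 to 0.00 (TMM), and under TMM 12 of 54 factors and 31 of 88 other pathway genes were above 0. The 12, with the 3 highest other pathway genes, were RCL1 0.31, DDX49 0.30, TSR3 0.27, NOP10 0.23, NHP2 0.19, RIOK1 0.18, TBL3 0.18, NOC4L 0.068, EBNA1BP2 0.066, PES1 0.039, UTP14A 0.035, RRP9 0.019, NOP2 0.0098, SDAD1 0.0095 and LTV1 0.0068. Under median-of-ratios scaling they were RCL1 0.31, DDX49 0.30, TSR3 0.28, NOP10 0.23, NHP2 0.19, RIOK1 0.19, TBL3 0.19, NOC4L 0.070, EBNA1BP2 0.069, PES1 0.042, UTP14A 0.038, RRP9 0.022, NOP2 0.013, SDAD1 0.013 and LTV1 0.0099. Under TMM with the replicate block they were TSR3 0.27, RIOK1 0.18, TBL3 0.18, NOC4L 0.067, EBNA1BP2 0.065, PES1 0.039, UTP14A 0.034, RRP9 0.018, NOP2 0.010, SDAD1 0.013 and LTV1 0.0073, and RCL1, DDX49, NOP10 and NHP2 were at the TMM value.

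The replicate letters were not taken to pair the libraries: deviations from the group means correlated at 0.151, 0.0728 and 0.128 within letters A, B and C, although each library correlated best with its own letter, a hint from the data and not from the design. With the letter as a replicate block on the spike-in scale 49 factors were lower, 9 by more than 0.7, and NOC4L alone lost its call.

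The filter left the factors' counts at 50 and 9 with filterByExpr and 49 and 9 with no filter, which tested more genes and gave 2492 and 2523 genes past the larger threshold. DESeq2 gave 50, 9 and 1386. Over the fits without 1 library each, 37 to 53 factors were lower and 5 to 18 passed the larger threshold, with 908 to 2093 of all genes; medians ran from -0.62 to -0.49 for all factors, -0.61 to -0.47 for SSU, -0.65 to -0.49 for LSU and -0.62 to -0.47 for snoRNP proteins. Under TMM, 22 to 32 factors were lower and 1 to 4 higher in those fits, and with the block 29 and 4. These counts under TMM were added after seeing the data. For the fits without 1 library, all genes were counted at the larger threshold only.

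The difference between SSU and LSU factors (shDYRK1A minus shControl) was 0.015, from -0.0008 (without shDYRK1A 1C) to 0.031 over those fits and -0.055 from summed counts, where the most abundant genes weigh most. For snoRNP proteins minus subunit factors it was 0.027, from -0.0056 (without shDYRK1A 1B) to 0.056, and 0.02 from summed counts. With all libraries the groups overlapped for each of these differences, although that of SSU and LSU factors from summed counts exceeded the SDs of 0.020 and 0.049 for shControl and shDYRK1A. The number of libraries, 3 per group, limits what such differences can show.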
